A study of Danio rerio with 24 samples.

Results

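Zebrafish (Danio rerio) embryos exposed to actinomycin D, an inhibitor of transcription, were compared between 4 and 3 hours post fertilization (hpf). The comparison rests on 8 of the 24 libraries of the series, chosen by their titles: 4 of actinomycin D embryos at 4 hpf and 4 of actinomycin D embryos at 3 hpf. All embryos were wild type of the TLAB strain. Actinomycin D was given at 10 µg/ml. The treatment protocol places the inhibitor in E3 medium as soon as the embryos were laid, whereas the series design speaks of injected embryos, so the route is not settled. Untreated embryos kept alongside, 4 libraries at 4 hpf and 4 at 3 hpf, serve as a second time course. The remaining libraries, of embryos in oligomycin, were not compared. They entered the estimate of the spread, the filter on low counts, the scaling and the mean levels over all libraries. In the study, actinomycin D embryos are the control in which zygotic transcription is blocked.

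An early zebrafish embryo runs on RNA that the mother placed in the egg. The zygotic genome is switched on at the mid-blastula transition, and part of the maternal RNA is removed around the same time. Some of that removal is carried out by maternal proteins and some needs zygotic products, of which the microRNA miR-430 is the best known in zebrafish. With transcription blocked, RNA that is lost cannot be replaced and the zygotic route is closed, so a time course in actinomycin D measures how the maternal pool changes without new RNA. Each library counted reads near the 3′ end of polyadenylated RNA in whole embryos. A library total is set by sequencing, so every level below is a share, in CPM (each count divided by the TMM-adjusted size of its library), and a gene called higher or lower took a larger or smaller share of its library.

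The libraries held 1970066 to 3353146 counts at 4 hpf and 1966154 to 3103912 counts at 3 hpf in actinomycin D embryos. Neither the totals nor the number of genes with a count (15178 ± 529 at 4 hpf and 15262 ± 416 at 3 hpf; SD, n = 4 each) differed beyond the spread (2-sided exact permutation tests, p = 0.914 and p = 0.8, adjusted p = 0.914 each, smallest possible p 0.0286). Markers of blood and adult tissue summed to 0 to 1.40 CPM at 4 hpf and 0.425 to 1.39 CPM at 3 hpf, and hbaa1, hbaa2, hbae1.1, myhz2 and fabp10a had no count in either group. Germ cell markers summed to 1359 to 1962 CPM at 4 hpf and 2172 to 3216 CPM at 3 hpf. The 6 markers include DAZL, ca15b and NANOS3, whose calls are given below. A list of 19 tested germ plasm RNAs had a median log2 fold change of -0.05, so the sum does not describe every marker. In whole embryos, fewer cells of a type and less RNA per cell cannot be told apart.

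The block on transcription was checked first, with 49 identifiers of zygotic genes. They summed to 39.0, 39.4, 40.4 and 200.9 CPM in the 4 hpf libraries (replicates 1 to 4) and to 44.7, 54.4, 67.9 and 59.0 CPM in the 3 hpf libraries of actinomycin D embryos. Untreated embryos held 3428 to 6112 CPM of the same genes at 4 hpf and 300.7 to 1362 CPM at 3 hpf. Replicate 4 at 4 hpf stood above the other 7 actinomycin D libraries and below all untreated libraries, while the other 4 hpf libraries lay below all 3 hpf libraries. The gene ovol1a alone held 48 of 90, 63 of 128, 119 of 195 and 116 of 185 of the summed counts at 3 hpf. It held 34 of 84, 27 of 76 and 46 of 131 in replicates 1 to 3 at 4 hpf, so the order of these libraries rests in large part on that gene. In replicate 4 at 4 hpf, 33 of the 49 genes had more than 3 counts, and 22 of those had 3 counts or fewer in the other 7 actinomycin D libraries. The mesodermal T-box gene tbx16 had 85 counts there, against 0, 0 and 0 in the other 4 hpf libraries and 0, 0, 1 and 0 in the 3 hpf libraries. The yolk syncytial layer gene mxtx2 had 26 counts there and at most 1 elsewhere. SOX3, a neural and early ectodermal transcription factor, had 40 counts there, against 1, 2 and 5 in the other 4 hpf libraries and 3, 4, 2 and 2 in the 3 hpf libraries. The 55 precursor genes of miR-430 had 0 counts in 7 of the 8 actinomycin D libraries and 9 counts (3.14 CPM) in 4 hpf replicate 4, against 28 to 79.0 CPM in untreated 4 hpf and 48.7 to 127.9 CPM in untreated 3 hpf libraries. They are near-identical copies, and their counts are uncertain. Markers of the enveloping layer summed to 3.11 to 34.9 CPM at 4 hpf and 2.79 to 6.70 CPM at 3 hpf. Those of the yolk syncytial layer summed to 0 to 11.2 CPM at 4 hpf and 0.348 to 0.957 CPM at 3 hpf. Several of these markers (krt4, cldne, grhl3, klf17, mxtx2 and GATA5) are among the 49 zygotic identifiers, so the sums are not a separate check. Because of 4 hpf replicate 4, the counts of genes called in all and in each list are given with that library, and without it where they change. The calls of named genes are given in the same way. Shares by level and overlaps with untreated embryos are given with that library only.

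**Figure D1:**
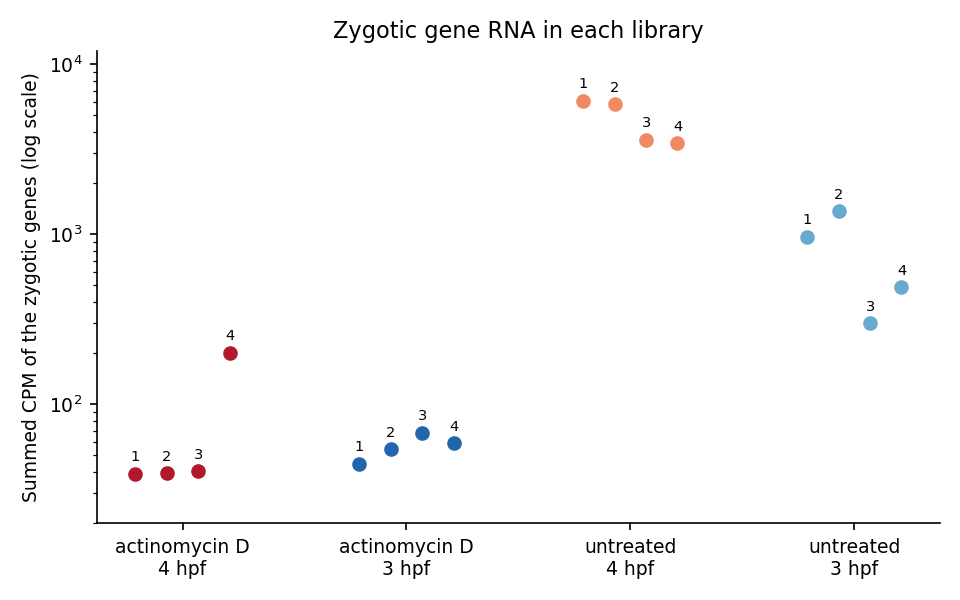
Summed CPM of 49 zygotic gene identifiers in each library (log axis), with the replicate number above each point, for actinomycin D and untreated embryos at 4 and 3 hpf. Replicate 4 of actinomycin D at 4 hpf stands at 200.9 CPM while the other 7 actinomycin D libraries lie between 39.0 and 67.9 CPM.

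More genes were called lower than higher between 3 and 4 hpf, and the called losses were the larger changes. Of 32520 identifiers, 11238 passed the filter on low counts and entered edgeR's quasi-likelihood test. A gene was called where its p, adjusted over all tested genes by Benjamini-Hochberg, was below 0.05. At 4 hpf 865 genes were lower (7.7%) and 363 were higher (3.23%), 1228 in all (10.9%). A change of at least 2-fold was called for 274 lower genes (2.44%) and 4 higher genes (0.0356%). Without 4 hpf replicate 4, 1103 of 11398 tested genes were called (9.68%), 813 lower (7.13%) and 290 higher (2.54%), with 340 lower (2.98%) and 6 higher (0.0526%) by at least 2-fold, and 741 of the 865 and 248 of the 363 were still called. The groups of 4 libraries did not overlap for 744 of the 865 genes called lower and 327 of the 363 called higher, where 9.85% and 8.02% of all tested genes had groups apart in these directions. Library numbers in the titles form 4 sets with a library of each group, and members of a set deviated together. The 4 hpf library was below the 3 hpf library of its set in all 4 sets for 862 of the genes called lower, and above it in all 4 sets for 359 of those called higher. The calls were made from the same libraries. Over all tested genes, 2390 (21.3%) were below and 2421 (21.5%) above in all 4 sets. Of the 11238 tested genes, 5080 had a log2 fold change below 0, and the median over all was 0.04.

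The fall was a moderate one, spread over many genes. The median log2 fold change of the 865 genes was -0.82, a 1.77-fold lower level, with a range of -2.77 to -0.31, and 10 genes fell at least 4-fold. Their median level was 40.7 CPM at 4 hpf and 72.4 CPM at 3 hpf. Together they made up 6.71% of all CPM at 4 hpf and 11.7% at 3 hpf. Genes called higher had a median log2 fold change of 0.42 (1.33-fold) and a largest one of 1.49, with a median level of 200.1 CPM at 4 hpf and 153.8 CPM at 3 hpf. They made up 11.8% of all CPM at 4 hpf and 8.83% at 3 hpf. Calls in the 2 directions were spread differently over the range of levels. The tested genes were split into 5 equal bins by mean level over all 24 libraries. The share called lower was 0.979%, 5.87%, 10.0%, 11.5% and 10.1%, lowest bin first. The share called higher was 0.0890%, 0.579%, 0.667%, 4.09% and 10.7% in the same bins.

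**Figure D2:**
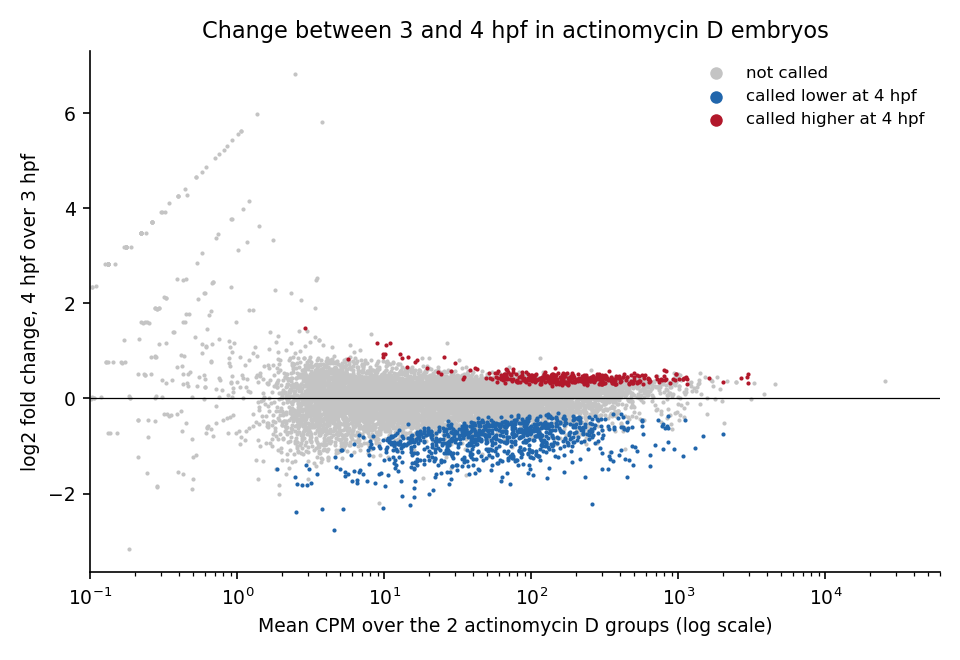
log2 fold change of 4 over 3 hpf in actinomycin D embryos against the mean CPM of both groups (log axis), each point a gene, coloured by call (77 genes with a mean under 0.1 CPM are not drawn). Calls below 0 are spread over most of the range of levels and reach -2.77, whereas most calls above 0 lie towards the right, and 4 of them reach 2-fold.

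The numbers called depended on the model and on single libraries. A model with a block for each library set called 2375 genes (21.1%), 1428 lower (12.7%) and 947 higher (8.43%), with 326 lower (2.9%) and 9 higher (0.0801%) by at least 2-fold. It called 864 of the 865 and all 363. Scaling by total counts gave 952 lower and 203 higher. The number lower dropped to 481 without 3 hpf replicate 4, to 510 without 3 hpf replicate 3 and to 576 without 4 hpf replicate 2. The number higher was 65 without 4 hpf replicate 2, 76 without 3 hpf replicate 4, 104 without 4 hpf replicate 1, 119 without 3 hpf replicate 3 and 202 without 3 hpf replicate 1. In all 8 fits without a library, 432 of the genes called lower and 34 of those called higher were still called.

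Among genes that fell at least 2-fold, the 12 of smallest p included proteins of mitochondria, chromatin and cell division. None of the 12 lost its call without 4 hpf replicate 4 or any other single library, and in each the 4 hpf libraries lay below all 3 hpf libraries, as for 9.85% of all tested genes. The 12 were chosen by p from the same libraries, so the separation follows largely from that choice. NOCT (ENSDARG00000077726), which encodes nocturnin of the deadenylase-related enzyme family, had 3.73, 3.13, 8.36 and 10.5 CPM at 4 hpf, against 23.9, 25.2, 29.0 and 23.1 CPM at 3 hpf. Its log2 fold change was -1.89 (SE 0.23, edgeR adjusted p = 6.16e-05), and -2.21 without 4 hpf replicate 4, its highest 4 hpf library. The mitochondrial carrier gene slc25a39 (ENSDARG00000007449), known in mammals for glutathione import, had 20.1, 21.4, 40.5 and 37.2 CPM at 4 hpf, against 89.8, 71.8, 103.9 and 117.0 CPM at 3 hpf (log2 fold change -1.66, SE 0.20, edgeR adjusted p = 6.16e-05). PRELID1 (ENSDARG00000098671), which moves phosphatidic acid between mitochondrial membranes, averaged 42.0 ± 9.31 CPM at 4 hpf and 94.2 ± 5.91 CPM at 3 hpf (SD, n = 4 each). In each of these 3 genes every 4 hpf library was below every 3 hpf library, and replicates 1 and 2 were the lower pair at 4 hpf.

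BIRC5 (ENSDARG00000075621), the chromosomal passenger protein survivin, had 35.0, 39.1, 51.7 and 51.6 CPM at 4 hpf, against 107.7, 81.2, 141.3 and 139.7 CPM at 3 hpf (log2 fold change -1.40, SE 0.18, edgeR adjusted p = 9.78e-05). NASP (ENSDARG00000039208), a chaperone of histones H3 and H4, was the most abundant of the 12, with 815, 753, 997 and 812 CPM at 4 hpf, against 1857, 1502, 1788 and 1812 CPM at 3 hpf (log2 fold change -1.04, SE 0.14, edgeR adjusted p = 0.000169). The others were ints6 of the Integrator complex, the mitochondrial ribosomal protein gene MRPL48, the stress-linked nupr1a, the fatty acid elongase gene ELOVL3, RNASEK, si:ch211-160j14.2 and zgc:171727, with log2 fold changes of -1.81 (nupr1a) to -1.11 (RNASEK and ints6). A second identifier carries the symbol RNASEK, so reads could be shared between them.

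**Figure D3:**
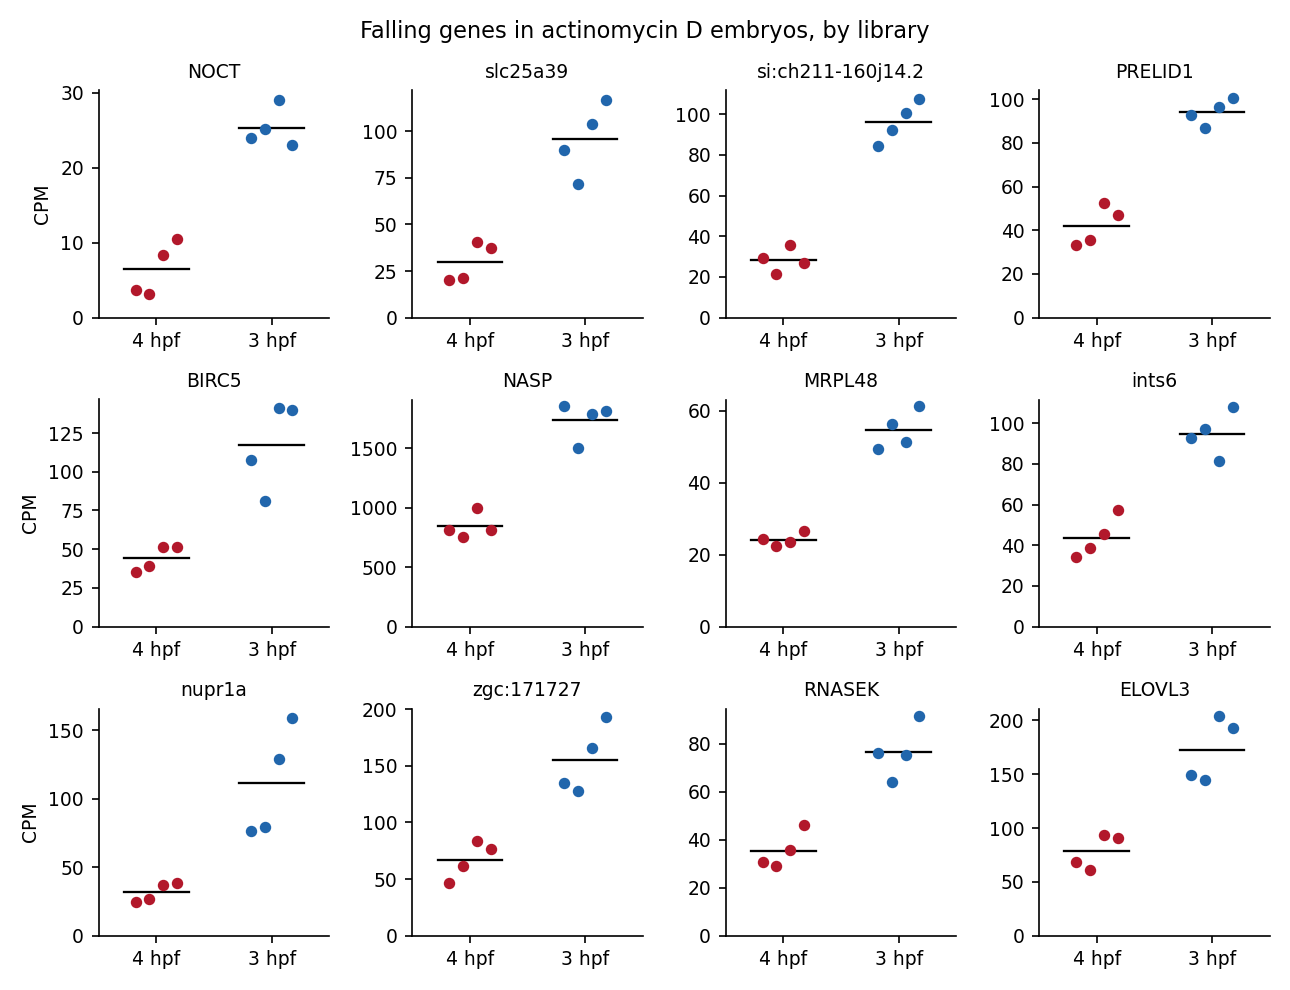
CPM of the 12 falling genes of smallest p in each actinomycin D library (points) with the group mean (bar), 4 hpf left and 3 hpf right, each panel starting at 0. In every panel the 4 points at 4 hpf lie below the 4 points at 3 hpf, the genes having been chosen by p from these libraries.

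Many RNAs of the oocyte and egg fell. Of 38 identifiers, 35 were tested and 12 were lower (34.3%, beside 7.7% of all tested genes) and 1 higher, with a median log2 fold change of -0.28 beside 0.04 over all tested genes. Leaving out 4 hpf replicate 4 gave 11 lower and 2 higher. The members called lower include genes of meiotic arrest and of RNA handling in the egg. The oogenesis-related gene org had 166, 123, 310 and 262 CPM at 4 hpf, against 480, 403, 879 and 941 CPM at 3 hpf (log2 fold change -1.64, SE 0.35, edgeR adjusted p = 0.00528). BTG4, which recruits the CCR4-NOT deadenylase to maternal mRNA in mammalian oocytes, had 290, 222, 361 and 455 CPM at 4 hpf, against 595, 470, 808 and 846 CPM at 3 hpf (log2 fold change -1.03, SE 0.27, edgeR adjusted p = 0.018). The groups did not overlap for either gene, and both had their lowest level at each time in replicate 2. ZAR1L, a relative of the oocyte protein ZAR1, birc5b, a second survivin gene, the claudin gene cldnd, the RNA-binding genes RBPMS2 (2 identifiers), the zinc finger gene cth1, the meiotic kinase gene MOS, the steroid enzyme gene CYP11A1 and the egg envelope gene zp3b were also lower, as was DAZL, which is also counted among the germ plasm RNAs. The call of zp3b was lost without 4 hpf replicate 4. IGF2BP3, an RNA-binding protein that stabilizes maternal mRNA in zebrafish, was the member called higher, at 970 ± 52.4 CPM at 4 hpf and 777 ± 29.3 CPM at 3 hpf (SD, n = 4 each; log2 fold change 0.32, SE 0.09, edgeR adjusted p = 0.0228).

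Germ plasm RNAs, which are handed to the primordial germ cells, were divided. Of 20 identifiers 19 were tested. Of these, 5 were lower (26.3%, beside 7.7% of all tested genes) and 1 higher (5.26%, beside 3.23%). The median log2 fold change was -0.05. Without 4 hpf replicate 4 only 3 were lower and 0 higher. The groups did not overlap for the 3 that stayed lower, as for 9.85% of all tested genes in this direction. DAZL, a translational regulator of germ cells, had 513, 425, 803 and 680 CPM at 4 hpf, against 1018, 966, 1552 and 1535 CPM at 3 hpf (log2 fold change -1.07, SE 0.27, edgeR adjusted p = 0.0149). The germ plasm RNA ca15b averaged 266 ± 78.2 CPM at 4 hpf and 653 ± 217 CPM at 3 hpf (SD, n = 4 each; log2 fold change -1.29, SE 0.27, edgeR adjusted p = 0.00418). PIWIL2, a Piwi protein of germ cells, was the third member that kept its call without 4 hpf replicate 4, with a log2 fold change of -0.82. NANOS3 and tdrd5 were lower and camk2g1 was higher with all 8 libraries, with adjusted p-values that missed the threshold without that library.

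Cell cycle genes moved in both directions. Of 99 identifiers 90 were tested. Of these, 21 were lower (23.3%, beside 7.7% of all tested genes) and 7 higher (7.78%, beside 3.23%). The median log2 fold change was -0.01. Leaving out 4 hpf replicate 4 gave 19 lower and 3 higher, beside 7.13% and 2.54% of all tested genes. The blocked model gave 26 lower and 13 higher, beside 12.7% and 8.43%. Genes of mitosis and of DNA replication were among the members that fell. The DNA topoisomerase gene TOP2A had 141, 139, 255 and 210 CPM at 4 hpf, against 315, 300.0, 515 and 525 CPM at 3 hpf (log2 fold change -1.15, SE 0.26, edgeR adjusted p = 0.00731). Its groups did not overlap, and replicates 1 and 2 were the lower pair at both times. AURKB, the kinase partner of survivin, averaged 511 ± 166 CPM at 4 hpf and 1064 ± 282 CPM at 3 hpf (SD, n = 4 each; log2 fold change -1.06), and the spindle motor gene kif11 had a log2 fold change of -1.03. CDC45, of the replicative helicase, had the lowest log2 fold change of the list, -1.54 (SE 0.45, edgeR adjusted p = 0.0321), but not a call without 4 hpf replicate 4 (adjusted p = 0.0518). CHEK1, aurka, plk1, UBE2C, fbxo5, an inhibitor of the anaphase-promoting complex, and the licensing factor MCM2 were lower too, with log2 fold changes of -0.77 to -0.45. The 7 genes called higher were CCNE1, CDC6, CDT1, CCNA2, cdc25b, ORC6 and CCNG1, which act largely at replication origins or in entry to S phase and mitosis. CCNE1 had 379, 373, 353 and 366 CPM at 4 hpf, against 263, 301, 288 and 263 CPM at 3 hpf (log2 fold change 0.40, SE 0.09, edgeR adjusted p = 0.00709), with no overlap. Of the 7, CCNE1, CDC6 and CDT1 kept their calls without 4 hpf replicate 4.

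Genes that supply histones to replicating chromatin were grouped after their values had been seen, so their count is a description. Of 24 identifiers 23 were tested, 11 were lower (47.8%, beside 7.7% of all tested genes) and 2 higher (8.7%, beside 3.23%). Without 4 hpf replicate 4, 11 were lower and 1 higher. Besides NASP, they include both genes with the symbol ASF1B, a chaperone that hands histones to deposition factors. One (ENSDARG00000043713) had 77.9, 63.1, 166 and 116 CPM at 4 hpf, against 195, 173, 379 and 336 CPM at 3 hpf (log2 fold change -1.35, SE 0.34, edgeR adjusted p = 0.0148). Its highest 4 hpf library lay just below its lowest 3 hpf library. The other (ENSDARG00000101037) averaged 157 ± 62.9 CPM at 4 hpf and 444 ± 196 CPM at 3 hpf (SD, n = 4 each; log2 fold change -1.49). RBBP4, hirip3, DNAJC9, slbp and slbp2, whose products bind histones or histone mRNA, had log2 fold changes of -1.28 to -0.84. MCM2, which is also in the cell cycle list, ubn1 and TONSL were lower too. SUPT16H of the FACT complex and DAXX were higher, the first not without 4 hpf replicate 4. The blocked model called 5 members higher, beside 8.43% of all tested genes.

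Many nuclear genes for mitochondrial ribosomal proteins and for the respiratory chain and ATP synthase fell. In these lists edgeR without the block called none of the tested genes higher. Of 75 identifiers of mitochondrial ribosomal proteins 72 were tested. By edgeR 23 were lower (31.9%, beside 7.7% of all tested genes) and 0 higher (beside 3.23%), with a median log2 fold change of -0.44. At an unadjusted p under 0.05, 34 were lower and 1 higher, and DESeq2 called 26 lower and 0 higher. The blocked model called 32 lower and 1 higher, beside 12.7% and 8.43% of all tested genes. Of 95 identifiers of the nuclear respiratory chain and ATP synthase 80 were tested. By edgeR 18 were lower (22.5%, beside 7.7% of all tested genes) and 0 higher, with a median log2 fold change of -0.35. At an unadjusted p under 0.05, 34 were lower and 0 higher, and DESeq2 called 18 lower and 0 higher. The blocked model called 26 lower and 0 higher, beside the same 12.7% and 8.43%. Over all 11238 tested genes 1582 were lower and 1218 higher at an unadjusted p under 0.05, and DESeq2 called 1028 lower and 542 higher. Leaving out 4 hpf replicate 4 gave 20 lower and 0 higher in the first list and 15 lower and 0 higher in the second. The ribosomal protein gene mrpl18 had 30.8, 29.7, 60.0 and 55.4 CPM at 4 hpf, against 85.3, 96.6, 129 and 131 CPM at 3 hpf (log2 fold change -1.31, SE 0.23, edgeR adjusted p = 0.000967). MRPL48, one of the 12 genes above, ranged over 22.4 to 26.7 CPM at 4 hpf, against 49.4 to 61.2 CPM at 3 hpf. The ATP synthase subunit gene ATP5PD had 215, 140, 362 and 291 CPM at 4 hpf, against 537, 469, 710 and 747 CPM at 3 hpf (log2 fold change -1.28, SE 0.31, edgeR adjusted p = 0.0105). The groups did not overlap for any of these 3 genes, as for 9.85% of all tested genes in this direction. UQCRQ of complex III, cox7b of complex IV and NDUFS6 of complex I were lower as well, with log2 fold changes of -1.13, -0.76 and -1.14.

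The 13 protein-coding genes of the mitochondrial genome showed no such fall. Their median log2 fold change was 0.26, and 0.21 without 4 hpf replicate 4, with 1 of the 13 below 0 in the main fit. Of these genes 0 were called lower and 0 higher by edgeR, with 0 lower and 1 higher at an unadjusted p under 0.05 and none called by DESeq2. Together they held 0.128% ± 0.0279 of counts at 4 hpf and 0.112% ± 0.00421 at 3 hpf (SD, n = 4 each; 2-sided exact permutation test, p = 0.314, adjusted p = 0.914). The range at 4 hpf, 0.0883% to 0.153%, enclosed the range at 3 hpf, 0.106% to 0.115%. Without 4 hpf replicate 2, the lowest 4 hpf library in this share, the unadjusted p of the exact permutation test was 0.0286. That is the smallest value the test allows with those libraries. Over all libraries left out in turn the p ran from 0.0286 to 0.543, so the test shows no rise that holds across libraries. Mitochondrial transcripts of opposite strands overlap, and the strand setting of the counting is not given in the sources used here.

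Subunits of the vacuolar proton pump (V-ATPase), which acidifies lysosomes and endosomes, were the list with the highest share of falling genes, again a list made after its values had been seen. Of 27 identifiers 22 were tested. With and without 4 hpf replicate 4, 13 were lower (59.1%, beside 7.7% of all tested genes). Of the 22, 0 were higher by edgeR, at an unadjusted p under 0.05 or by DESeq2. The median log2 fold change was -0.73. ATP6V1A (ENSDARG00000034534), the catalytic subunit, had 85.3, 50, 183 and 127 CPM at 4 hpf, against 276, 230, 472 and 441 CPM at 3 hpf (log2 fold change -1.66, SE 0.42, edgeR adjusted p = 0.0143). Its groups did not overlap, and replicate 2 was the lowest library at both times. ATP6V0D1, a subunit of the membrane sector, averaged 33.3 ± 8.26 CPM at 4 hpf and 85.4 ± 24.2 CPM at 3 hpf (SD, n = 4 each; log2 fold change -1.35). Of 20 tested lysosomal and yolk-processing genes 0 were lower by edgeR, at an unadjusted p under 0.05 or by DESeq2. The cathepsin genes CTSA and ctsla were higher (10%, beside 3.23% of all tested genes), though neither kept its call without 4 hpf replicate 4. The blocked model called 0 lower and 3 higher, beside 12.7% and 8.43% of all tested genes. Of 15 tested autophagy genes, chosen after their values had been seen, ATG3, ATG4B, ATG12 and ATG13 were lower (26.7%, beside 7.7% of all tested genes). In that list 0 were higher by edgeR, at an unadjusted p under 0.05 or by DESeq2. ATG12, at 0.774 and 4.22 CPM in the mean at 4 and 3 hpf, was not called without 4 hpf replicate 4. The gene map1lc3c, of the ubiquitin-like LC3 family of autophagy, is not in that list and was named after its values had been seen. It had the highest 3 hpf level among genes with a symbol called lower. Its levels were 1375, 1215, 1800 and 1554 CPM at 4 hpf, against 2094, 2094, 2978 and 2893 CPM at 3 hpf (log2 fold change -0.76, SE 0.19, edgeR adjusted p = 0.00999), all 4 hpf libraries being the lower. Mediator genes were also listed after seeing values. Of 28 tested, 5 were lower (17.9%, beside 7.7% of all tested genes) and 1 higher (3.57%, beside 3.23%). Without 4 hpf replicate 4 these were 4 and 1. In the blocked model they were 6 and 3, beside 12.7% and 8.43% of all tested genes. MED19 had 6.53, 5.21, 7.12 and 5.61 CPM at 4 hpf, against 23.4, 13.2, 35.0 and 31.4 CPM at 3 hpf, with no overlap.

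Genes that gained share included general transcription factors, splicing regulators and transporters. The 10 of smallest p were called with every library left out in turn, and none reached 2-fold. GTF2A1 (ENSDARG00000011000), a subunit of TFIIA, had 1307, 1292, 1249 and 1369 CPM at 4 hpf, against 910, 985, 943 and 975 CPM at 3 hpf (log2 fold change 0.45, SE 0.10, edgeR adjusted p = 0.00389). TAF13 (ENSDARG00000070834), a subunit of TFIID, had 166, 181, 188 and 174 CPM at 4 hpf, against 103, 128, 110 and 113 CPM at 3 hpf (log2 fold change 0.64, SE 0.14, edgeR adjusted p = 0.00411). The splicing regulator gene rbfox2 (ENSDARG00000052182) averaged 403 ± 14.3 CPM at 4 hpf and 269 ± 31.6 CPM at 3 hpf (SD, n = 4 each; log2 fold change 0.58, SE 0.11, edgeR adjusted p = 0.00176). The 4 hpf libraries lay above all 3 hpf libraries for each of them, as for 8.02% of all tested genes. These genes were chosen by p from the same libraries, so the separation follows largely from that choice. The lactate and pyruvate transporter gene SLC16A3, YAP1 of the Hippo pathway, the cytochrome P450 reductase gene POR, arid3b, si:ch211-288g17.3, si:ch211-210c8.7 and si:ch73-22o12.1 completed the 10, with log2 fold changes of 0.48 to 0.51. The 4 genes higher by at least 2-fold, named after their values had been seen, were low in level, namely rai1, ABCB6, DENND4B and U6, with 4.26 to 15.2 CPM at 4 hpf and 1.46 to 6.75 CPM at 3 hpf in the mean. U6 has many near-identical copies and lost its call without 4 hpf replicate 4 (adjusted p = 0.112).

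RNA-binding proteins of splicing were the list with the highest share of calls upward. Of 66 identifiers of hnRNP, SR and snRNP genes 62 were tested, 10 were higher (16.1%, beside 3.23% of all tested genes) and 4 were lower, and the median log2 fold change was 0.32. Leaving out 4 hpf replicate 4 gave 9 higher and 4 lower. The blocked model gave 26 higher and 5 lower, beside 8.43% and 12.7% of all tested genes. SNRPB, a core protein of spliceosomal particles and one of the 5 most abundant genes with a symbol, had 3454, 3506, 3804 and 3287 CPM at 4 hpf, against 2410, 2617, 2490 and 2350 CPM at 3 hpf (log2 fold change 0.51, SE 0.16, edgeR adjusted p = 0.0359). Every 4 hpf library was above every 3 hpf library, but of the 8 fits without a library 6 did not call it. The SR protein gene SRSF3 has 2 identifiers and both were higher, at 340 ± 9.72 and 811 ± 46.1 CPM at 4 hpf, against 239 ± 14.9 and 589 ± 43.7 CPM at 3 hpf (SD, n = 4 each). The small core proteins SNRPD2, SNRPF and SNRPG and hnrnpc were the 4 that fell, with log2 fold changes of -1.07, -1.01, -0.96 and -0.55. The other most abundant genes with a symbol, CCNA1, CFL1, SYNCRIP and SIVA1, were not called, with adjusted p-values of 0.189, 0.596, 0.0541 and 0.992 by edgeR. The blocked model called SYNCRIP higher (adjusted p = 0.0309).

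**Figure D4:**
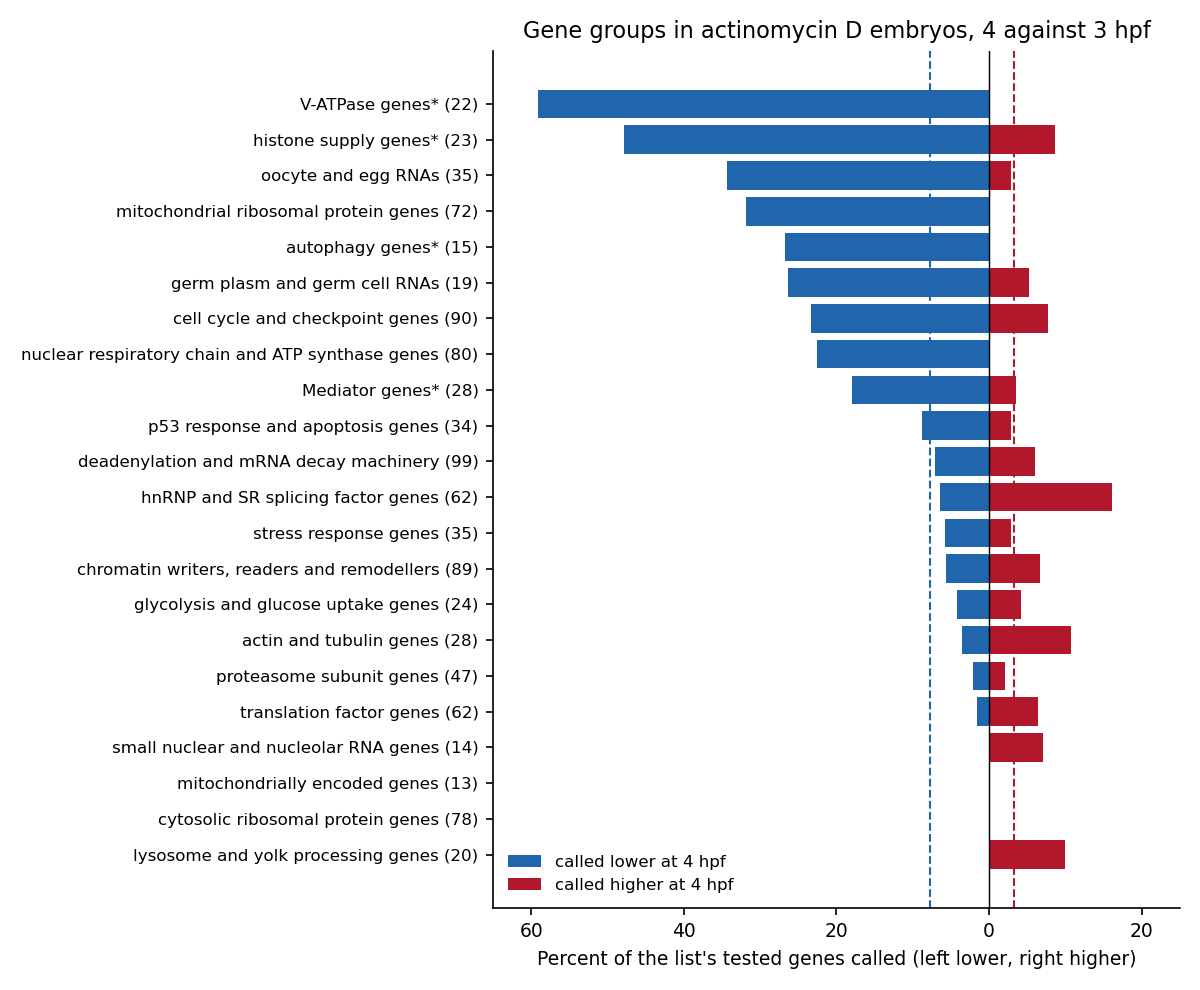
Percent of the tested genes of each list called lower (left of 0) and higher (right of 0) at 4 hpf in actinomycin D embryos, with the number tested in brackets and the share of all tested genes as dashed lines (7.7% lower, 3.23% higher). Asterisks mark lists made after values had been seen. V-ATPase genes have the longest bar to the left and splicing factor genes the longest to the right.

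The machinery of mRNA decay itself was called lower at a rate near that of all tested genes. Of 110 identifiers 99 were tested. Of these, 7 were lower (7.07%, beside 7.7% of all tested genes) and 6 higher (6.06%, beside 3.23%). The median log2 fold change was 0.15. Leaving out 4 hpf replicate 4 gave 8 lower and 5 higher. The blocked model gave 12 lower and 16 higher, beside 12.7% and 8.43% of all tested genes. NOCT, BTG4, the microRNA processing nuclease gene DROSHA, the RNA-binding genes ELAVL1 and ZFP36L2, CNOT10 of the deadenylase complex and patl2 were lower. DROSHA had 48.0, 54.2, 87.0 and 81.8 CPM at 4 hpf, against 127, 140, 165 and 155 CPM at 3 hpf (log2 fold change -1.10, SE 0.17, edgeR adjusted p = 0.000376), with no overlap. The exonuclease gene XRN1, the deadenylase gene CNOT8, DDX6, KHSRP, UPF1 and IGF2BP3 were higher, with log2 fold changes of 0.27 to 0.40, DDX6 and KHSRP not without 4 hpf replicate 4. XRN1 averaged 167 ± 21.8 CPM at 4 hpf and 127 ± 15.0 CPM at 3 hpf (SD, n = 4 each), and its groups overlapped.

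Other lists are given beside shares of 7.7% lower and 3.23% higher over all tested genes by edgeR without the block. In the blocked model these shares were 12.7% and 8.43%, and without 4 hpf replicate 4 they were 7.13% and 2.54%. At an unadjusted p under 0.05, 1582 of the 11238 tested genes were lower and 1218 higher. DESeq2 called 1028 of them lower and 542 higher. Of 78 tested cytosolic ribosomal protein genes 0 were lower and 0 higher by edgeR, with 1 lower and 4 higher at an unadjusted p under 0.05 and 0 lower and 1 higher by DESeq2. The blocked model called 1 lower and 8 higher. Of the 9 maternal activators of the zygotic genome 0 were called by edgeR, but 6 were higher at an unadjusted p under 0.05, 3 by DESeq2, 5 in the blocked model and 1 without 4 hpf replicate 4. Of these, nanog averaged 1033 ± 104 CPM at 4 hpf and 814 ± 43.9 CPM at 3 hpf (SD, n = 4 each; log2 fold change 0.34, SE 0.13, adjusted p = 0.0837, and 0.0292 in the blocked model). Its fellow activators pou5f3 and sox19b had log2 fold changes of 0.23 and 0.32 (edgeR adjusted p = 0.189 and 0.0633). Chromatin genes had 5 lower (5.62%) and 6 higher (6.74%) of 89 tested, 4 lower and 8 higher without 4 hpf replicate 4, and 6 lower and 19 higher in the blocked model. SMARCB1 of the SWI/SNF remodeller and the H3K9 methyltransferase gene setdb1a were lower, while the H2A.Z gene h2az2b and SMARCD1 were higher. Translation factor genes had 1 lower (1.61%) and 4 higher (6.45%) of 62, with 2 lower and 3 higher without 4 hpf replicate 4, and 2 lower and 7 higher in the blocked model. Proteasome genes had 1 lower (PSMD10, 2.13%) and 1 higher (PSME3, 2.13%) of 47, and 3 lower and 2 higher in the blocked model. Actin and tubulin genes had 1 lower (ARPC5, 3.57%) and 3 higher (10.7%) of 28, with 1 lower and 1 higher without 4 hpf replicate 4, and 2 lower and 5 higher in the blocked model. Of 35 stress response genes the kinase gene EIF2AK3 of the unfolded protein response and sesn2 were lower (5.71%) and the chaperone gene HSPA8 was higher (2.86%). In that list 3 were lower and 1 higher without 4 hpf replicate 4, and 5 lower and 4 higher in the blocked model. EIF2AK3 had 79.3, 91.2, 131 and 145 CPM at 4 hpf, against 183, 183, 237 and 288 CPM at 3 hpf, all 4 hpf libraries being the lower. Of 24 glycolysis and glucose uptake genes HK2 was lower (4.17%) and SLC16A3 higher (4.17%). Of 34 p53 response and apoptosis genes bida, BCL2L1 and baxb were lower (8.82%) and CCNG1 was higher (2.94%). Of these, baxb and CCNG1 were not called without 4 hpf replicate 4. In that fit 3 were lower and 1 higher, with other members called in their place. The blocked model called 4 lower and 3 higher. Of 14 tested small nuclear and nucleolar RNA genes U6 was higher (7.14%), and of 42 tested zygotic genes ovol1a was lower (2.38%) and 0 higher by edgeR. Among the zygotic genes 1 was lower and 1 higher at an unadjusted p under 0.05, and DESeq2 called 1 lower and 8 higher. The median log2 fold change of this list lay above 2 with all 8 libraries and was 0 without 4 hpf replicate 4. Of its 49 identifiers, 22 had more than 3 counts in that library alone among the actinomycin D libraries. Whether the 8 DESeq2 calls hold without that library was not tested, so they do not show a rise across the group.

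The time effect in actinomycin D was set beside that in untreated embryos, which shares no library with it, to ask which changes differ when transcription runs. Of the 865 genes lower in actinomycin D, 653 (75.5%) were also lower in untreated embryos, and these are 39.7% of the 1643 genes lower there (14.6% of tested genes). Of the 363 higher genes, 218 (60.1%) were also higher in untreated embryos, which is 15.2% of the 1437 genes higher there (12.8% of tested genes). The median log2 fold change of the 865 genes was -0.82 in actinomycin D and -0.79 in untreated embryos. For the 363 genes it was 0.42 in actinomycin D and 0.35 in untreated embryos. Over the 11238 tested genes the log2 fold changes of the 2 treatments correlated at r = 0.547 (Pearson) and rho = 0.587 (Spearman). For the 8419 with a mean of at least 10 CPM over all libraries, r was 0.676 and rho 0.691. These are across genes, which are not independent replicates, and libraries of both treatments belong to the same library sets. ZAR1L, for example, had a log2 fold change of -1.09 in actinomycin D and -1.31 in untreated embryos, NASP -1.04 and -0.97, and MRPL48 -1.17 and -1.20.

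The difference between the time effects was tested as an interaction and called for 194 of 11238 genes (1.73%), of which 113 were lower (1.01%) and 81 higher (0.721%) in actinomycin D relative to untreated. Leaving out 4 hpf replicate 4, it was called for 157 of 11398 genes (1.38%), 98 lower (0.86%) and 59 higher (0.518%), and in the blocked model for 457 (226 lower, 231 higher). The count was 96 without actinomycin D 3 hpf replicate 3, 119 without actinomycin D 3 hpf replicate 4, 99 and 122 without untreated 4 hpf replicates 1 and 2, 124 without untreated 3 hpf replicate 4, and 303 without untreated 4 hpf replicate 4. In the second library series alone, with 2 libraries per group, 0 genes were called by edgeR and 517 had an unadjusted p under 0.05. Of the 113 genes that were lower, 94 were called higher in untreated embryos and not called in actinomycin D.

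Few genes fell in actinomycin D and rose in untreated embryos. Of the 865 genes lower in actinomycin D, 9 were higher in untreated embryos, and the interaction was called for all 9. The 9 were chosen by opposite calls in the same fit, so these interaction calls are a description. NOCT, whose values are above, rose in untreated embryos, at 72.7 ± 11.8 CPM at 4 hpf and 37.3 ± 4.91 CPM at 3 hpf (SD, n = 4 each), and its log2 interaction was -2.85 (SE 0.30, adjusted p = 9.12e-06 by edgeR). The zinc finger transcription factor gene ovol1a had 15.9, 14.1, 14.2 and 22.1 CPM at 4 hpf, against 23.9, 26.9, 41.6 and 37.2 CPM at 3 hpf in actinomycin D, and 129 and 37.8 CPM in the mean in untreated embryos at 4 and 3 hpf (interaction -2.73, SE 0.34, edgeR adjusted p = 8.77e-05). AMOTL2, of the angiomotin family, ranged over 21.5 to 37.4 CPM at 4 hpf and 53.9 to 58.7 CPM at 3 hpf in actinomycin D, with means of 91.7 and 59.0 CPM in untreated embryos at 4 and 3 hpf (interaction -1.50, SE 0.21, edgeR adjusted p = 0.000355). The other 6, named after their values had been seen, were PCF11, a cleavage and polyadenylation factor, stard14, arl5c, NAT9, diabloa and maff. Without 4 hpf replicate 4 diabloa was not called lower in actinomycin D (adjusted p = 0.0510 by edgeR). ELOVL3 and fbxo5 were lower in actinomycin D without a call in untreated embryos, with interactions of -0.98 and -0.69 (edgeR adjusted p = 0.0216 and 0.028); for fbxo5 the adjusted p was 0.0643 without 4 hpf replicate 4. The cytoskeletal gene nav2b had the interaction of largest size among the named genes, -4.72. It had 102 ± 46.8 and 8.80 ± 2.60 CPM in untreated embryos at 4 and 3 hpf (SD, n = 4 each). In actinomycin D nav2b was low, at 5.04 and 11.7 CPM in the mean at 4 and 3 hpf, and was not called (edgeR adjusted p = 0.136).

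Other genes were called lower in untreated embryos without a call in actinomycin D. Of 1643 genes lower in untreated embryos, 988 were not called in actinomycin D, and the interaction was called for 77 of these. M6PR, a receptor that sorts lysosomal enzymes, had 183, 171, 176 and 149 CPM at 4 hpf, against 144, 151, 152 and 132 CPM at 3 hpf in actinomycin D (log2 fold change 0.23, edgeR adjusted p = 0.198), and 68.8 and 145 CPM in the mean in untreated embryos at 4 and 3 hpf (interaction 1.30, SE 0.16, edgeR adjusted p = 8.77e-05). Its groups overlapped in actinomycin D. STARD7, a lipid transfer protein, had 106, 142, 106 and 102 CPM at 4 hpf, against 81.8, 87.2, 75.6 and 86.5 CPM at 3 hpf in actinomycin D, and 42.1 and 92.4 CPM in the mean in untreated embryos at 4 and 3 hpf (interaction 1.58, SE 0.22, edgeR adjusted p = 0.000355). It was called higher in actinomycin D (adjusted p = 0.0493) and lower in untreated embryos, but the call in actinomycin D was lost in 7 of 8 fits without a library. AKR1B1, an aldose reductase, had an interaction of 1.95 (SE 0.32, edgeR adjusted p = 0.00212). All 3 kept their interaction call without 4 hpf replicate 4 and in the blocked model.

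**Figure D5:**
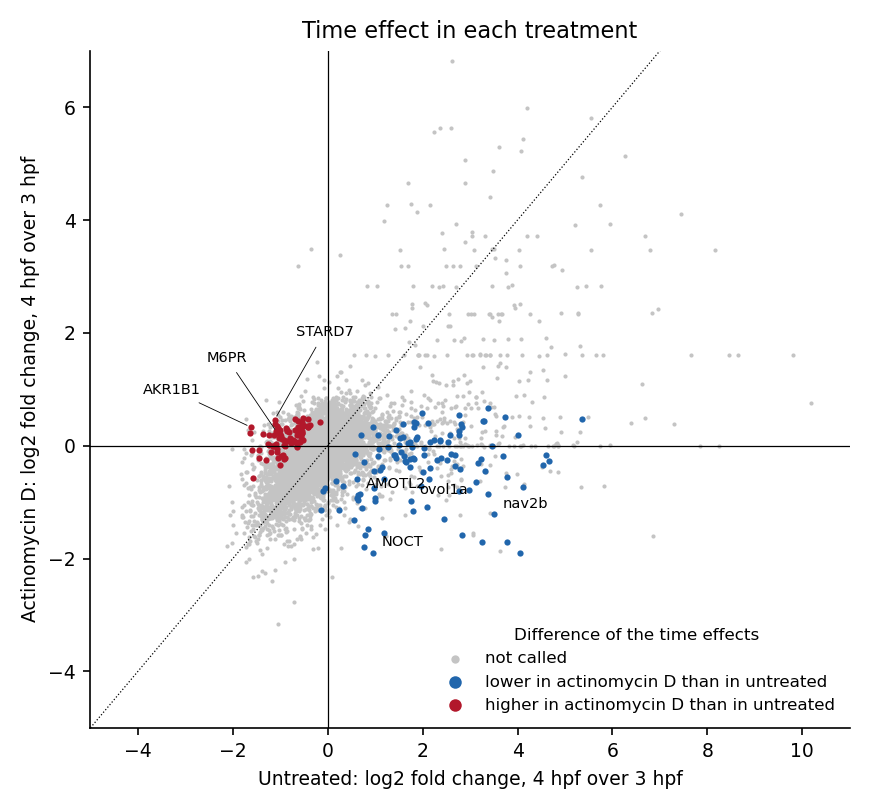
log2 fold change of 4 over 3 hpf in actinomycin D embryos (vertical) against that in untreated embryos (horizontal), each point a tested gene, coloured where the difference of the time effects was called, with the dotted line marking equal effects. Of the 113 genes lower in actinomycin D relative to untreated embryos, 94 were called higher in untreated embryos and not called in actinomycin D, and 77 of the 81 in the other colour were called lower in untreated embryos and not called in actinomycin D.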

How the data were processed

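Libraries were made from total RNA of whole embryos with the Lexogen QuantSeq kit, per the labels' protocols. The authors deposited whole-number read counts per Ensembl gene, per the file headers, not normalized. The submitters' processing notes name Bowtie2 2.3.4.1, featureCounts, Subread 1.6.2 and the build GRCz11, with no role or order. The annotation release, strand setting and use of molecular identifiers are not given in the sources used here. Intervals and floors would cover counting error only, because PCR copies are not independent molecules. Whether poly(A) tail length or RNA amount per embryo moved the shares was not tested.

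All counts entered edgeR 4.0.16 in R 4.3.3 (TMM scaling, filterByExpr by group, robust quasi-likelihood fit over all 24 libraries with group means, Benjamini-Hochberg adjustment). The interaction is the actinomycin D time effect minus the untreated one. Gene levels and summed levels are CPM after TMM scaling. The fit was tested on simulated data drawn without an effect of library set. That test therefore does not cover libraries of a set that deviate together. DESeq2 1.42.0, other scalings and filters, library series, sets and left-out libraries were alternatives. Symbols came from a table that matched 29201 of the 32520 identifiers and often uses the human spelling. No sequences or coordinates were used here.

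Replicates were numbered in accession order. Nothing says that they came from separate clutches, so p-values measure the spread between libraries. No libraries of a group agreed within counting noise (chi-square per gene 4.03 or more). Library numbers in the titles form 2 series and 4 sets. The 4 hpf and 3 hpf libraries of a set deviated together (r = 0.335, 0.601, 0.449 and 0.453), and each correlated best with its own set. Sets were read as pairs in the blocked model and in the counts within sets only. The main fit and the exact permutation tests did not use the pairing. What the numbers mark is not stated.

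The comparison, the 22 gene lists and the rules for naming genes were chosen with earlier results of these data known, and 4 lists (V-ATPase, Mediator, autophagy, histone supply) after their values had been seen. Lists were described by counts and medians, with no set test. Of the blood and adult tissue list 0 genes passed the filter, so it had no test. Named genes were the 12 lower (at least 2-fold and 10 CPM at 3 hpf) and the 10 higher (10 CPM at 4 hpf) of smallest p, 4 interactions in each direction, the 5 most abundant and up to 2 per list and direction; others were named from list calls after their values had been seen. A gene that the rule chose is not reported here.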

Additional observations from a re-analysis of the deposited data

Results flagged for a closer look

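Of 204 groups of 4 actinomycin D libraries looked at, 9 held a library far from its group, where chance gives about 10.2. Replicate 4 at 4 hpf stood apart with 201 CPM of zygotic genes and 3.14 CPM of miR-430 precursors, as described above. At 4 hpf, STARD7 stood at 142 CPM in replicate 2, fbxo5 at 211 CPM in replicate 3, lysosome and yolk processing genes at 5730 CPM in replicate 1, hnRNP and SR genes at 31200 CPM in replicate 2 and histone supply genes at 5970 CPM in replicate 3. At 3 hpf, SIVA1 stood at 2410 CPM in replicate 2 and HSPA8 at 621 CPM in replicate 4.

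Among 73 named genes, 9 had a time effect that differed between actinomycin D and untreated embryos by the edgeR interaction test. The differences on the log2 scale were -2.85 for NOCT, -0.984 for ELOVL3, -2.73 for ovol1a, -1.5 for AMOTL2, -4.72 for nav2b, -0.691 for fbxo5, 1.3 for M6PR, 1.58 for STARD7 and 1.95 for AKR1B1. NOCT, ovol1a, AMOTL2, nav2b, M6PR, STARD7 and AKR1B1 were named because of that test, so their sizes are a description.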

How the results depend on the processing

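None of the 115 results for named genes had a call reversed under the alternatives run. Of the 115, only 37 stayed on their side of the threshold in every alternative. In the first library series alone 60 of 114 results lost a call, and in the second alone 59 of 115. Of 2227 gene-by-setting values, 1903 stayed on their side of the threshold, while 318 lost and 6 gained a call. A change near 0 could change sign without a call. That of SIVA1 ran from -0.112 to 0.066 on the log2 scale over the fits without a library. The median of a list moved by more than 1 SD of its mean level between libraries in 27 of 473 values, and 51 of 52 summed levels stayed within 1 SD under scaling by total counts. With the library set as a replicate block, 2375 genes were called (947 higher, 1428 lower, 9 higher by at least 2-fold) and 457 interactions (231 higher, 226 lower). With the block and without 4 hpf replicate 4, added after seeing the data, these were 2119 (765, 1354 and 10) and 379 (179 and 200). With no filter on low counts 748 were called and 104 higher, and scaling by total counts gave 203 higher. The first library series alone gave 219 (3 higher, 216 lower, 1 and 134 by at least 2-fold) and 115 interactions (40 higher, 75 lower). The second gave 369 (5 higher, 364 lower, 0 higher by at least 2-fold) and 0 interactions, 0 higher and 0 lower (517 at an unadjusted p under 0.05 by edgeR). DESeq2 gave 20 higher by at least 2-fold and 326 interactions (208 lower), and the compared groups alone gave 2 higher by at least 2-fold. Leaving out the most abundant identifier, also added after seeing the data, left 865 lower and 363 higher.

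Leaving out a library gave 557 to 1243 calls, 65 to 362 higher, 481 to 881 lower, 0 to 7 higher and 174 to 349 lower by at least 2-fold, and 96 to 303 interactions (35 to 147 higher, 61 to 156 lower). The difference in totals ran from -227354 to 233672, in genes with a count from -250.4 to 118.9, and in the mitochondrial share from 0.00839 to 0.0298 percentage points. Library sets and library series cannot be told apart from what the title numbers mark. In the lowest bin of levels 0.979% of genes were called lower and 0.0890% higher, and what depth contributes there was not tested.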

Other observations

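Among genes that were not called, 105 had a fitted log2 fold change of 2 or more at 4 over 3 hpf in actinomycin D embryos. Of these, 97 had their highest level in 4 hpf replicate 4 and 74 had 0 counts in all 3 hpf libraries. In untreated embryos 89 were called higher at 4 hpf, beside 12.8% of all tested genes. The filter on low counts used all groups, so genes near 0 in actinomycin D could pass it through groups where they are high. The 89 are therefore a description and follow in part from the filter. A single identifier without a symbol held 1.96% to 3.47% of counts at 4 hpf and 1.90% to 2.49% at 3 hpf in actinomycin D embryos, and leaving it out changed neither number of calls.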
